A study of Homo sapiens with 6 samples.

Results

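The genes described here are the main protein kinases that phosphorylate tau, the activators of 1 of them, and the catalytic subunit of the main tau phosphatase: GSK3A, GSK3B, CDK5, CDK5R1, CDK5R2, MARK1, MARK2, MARK3, MARK4 and PPP2CA. They were described through the ChIP-seq peaks listed in and around them. A peak was assigned to a gene when it overlapped the annotated gene interval extended by 10 kb on both sides. The 10 genes are taken from 19974 protein-coding genes on 23 chromosomes. Their windows held 61 of the 78694 listed H3K27ac peaks and 25 of the 43677 listed CTCF peaks. The chromatin was from neurons that had been differentiated from neural progenitors. All cells were of the KOLF2.1J line, which is an established line of induced pluripotent stem cells, and no treatment or genotype differs between samples. There were 2 libraries with an antibody against CTCF, 2 with an antibody against H3K27ac and 2 input libraries without antibody. The labels do not say whether the 2 libraries of an antibody came from separate cultures, and all libraries share 1 cell line. The title of the study concerns elements that regulate MAPT, the tau gene.

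Tau binds microtubules through repeats in its C-terminal part and is released when it is phosphorylated there. GSK-3 (genes GSK3A and GSK3B) and CDK5 phosphorylate serines and threonines followed by proline, and GSK-3 often acts on sites next to a residue that is already phosphorylated. CDK5 has no activity without a regulatory subunit, which in neurons is encoded by CDK5R1 or CDK5R2. The MARK kinases phosphorylate the repeats themselves, and protein phosphatase 2A (PP2A), whose catalytic subunit is encoded by PPP2CA, removes phosphate from tau. H3K27ac is a histone acetylation found at active promoters and enhancers. CTCF is a DNA-binding protein that sits at loop anchors and domain borders.

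Each antibody had 1 deposited list made from both libraries, so no value has a spread between replicates, no group was compared with another and no test was made. The depth behind the values is unknown. H3K27ac strength is given as fold enrichment and CTCF strength as the authors' signal value. The scales differ and were never compared with each other. The percentile of a peak is the share of its own list with an equal or lower value. Positions are 1-based on hg38, and gene intervals are those of GRCh38.p14. Markers of the labelled cell type and of others were counted in the same way, against 77.1% of all protein-coding genes with an H3K27ac peak within 10 kb. Such a peak lay within 10 kb of 15 of 15 neuron markers, 10 of 11 neural progenitor markers, 6 of 7 astrocyte markers, 5 of 7 oligodendrocyte markers, 3 of 6 matched pluripotency markers and 3 of 8 liver and muscle markers. The median of the highest fold enrichment was 17.0 for the neuron markers, all of which had a peak. This was close to the 16.9 of all protein-coding genes with a peak. The median was 35.3 for the progenitor markers, 20.02 for the astrocyte markers and 5.83 for the oligodendrocyte markers. In these medians a gene without a peak was ranked lowest. Ranked in that way, all protein-coding genes had a median of 12.3, below that of the neuron markers. MKI67, AQP4, MAG, OLIG2 and NANOG were among the markers without a peak. Peaks of progenitors and of neurons cannot be told apart in these bulk lists.

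All 10 genes had H3K27ac nearby, but in very different forms. The background for this count is high, since 77.1% of all protein-coding genes had an H3K27ac peak within 10 kb. The strongest peak stood at or above percentile 90 of the list, a fold enrichment of 16.3, in 8 of the 10 genes, against 39.8% of all protein-coding genes. CDK5R2 and MARK4 were the exceptions, with highest fold enrichments of 6.86 and 9.89. At CDK5 and MARK2 the strongest peak lay in a neighbouring protein-coding gene. CTCF was listed near 9 of the 10 genes, against 75.2% of all protein-coding genes, and CDK5R2 had none. A CTCF peak at or above percentile 90, a signal of 257, was present at MARK2, MARK3, MARK4 and PPP2CA, which is 4 of 10 against 19.7% of all protein-coding genes.

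**Figure D1:**
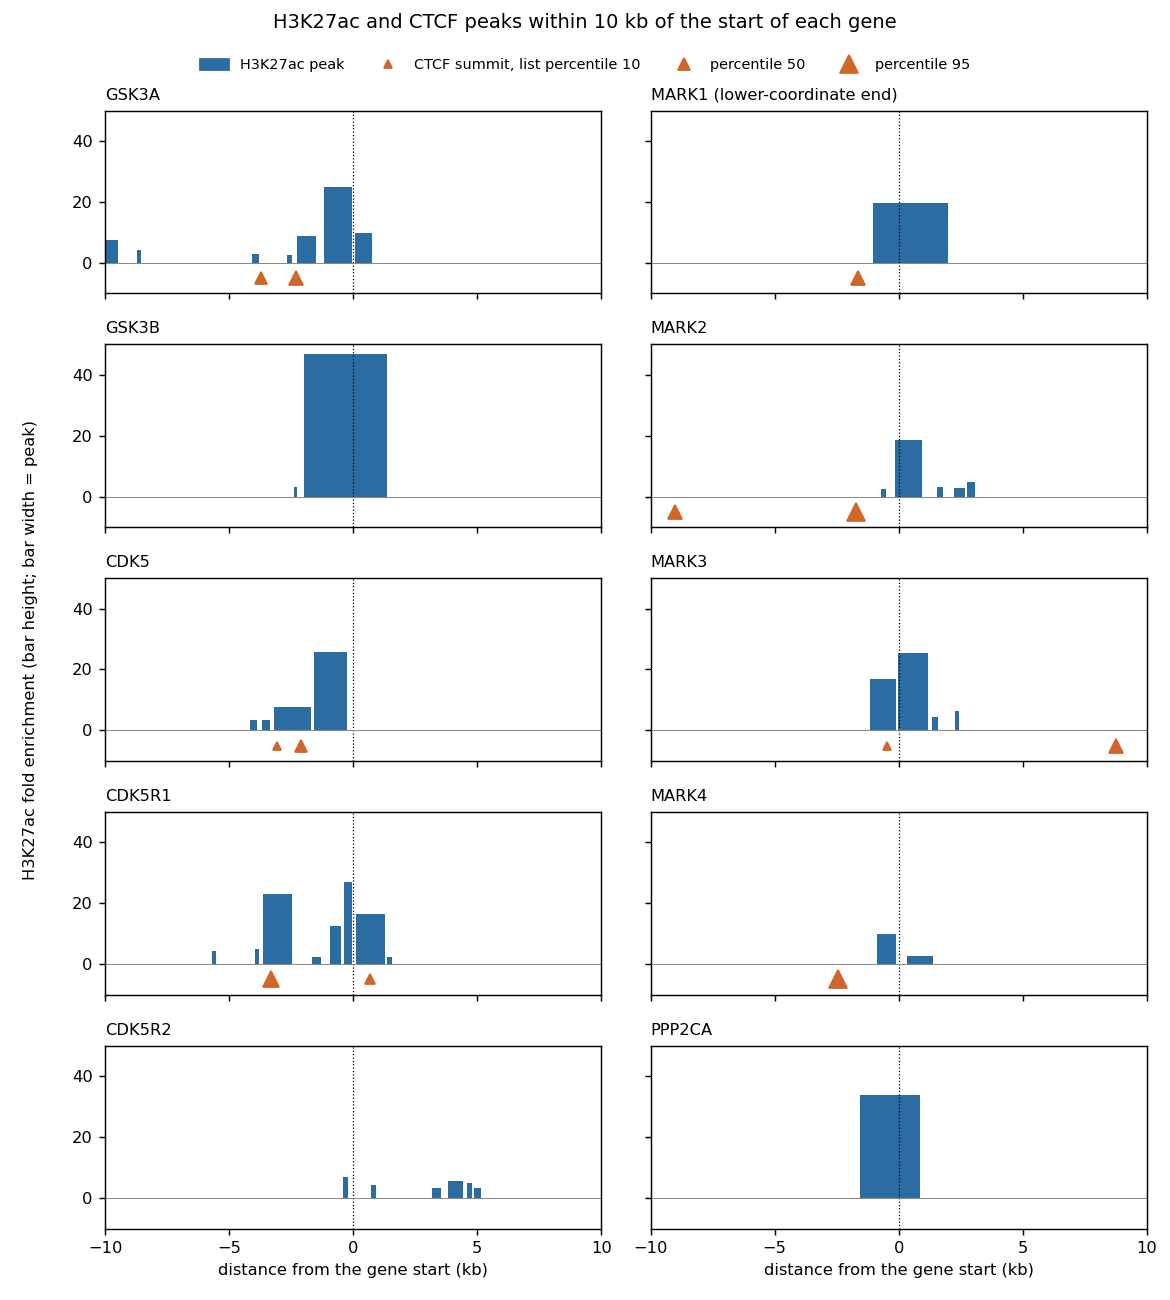
H3K27ac fold enrichment (bar height, linear axis; bar width is the peak) and CTCF summits (triangles, larger with higher list percentile, drawn below 0 for display) within 10 kb of the annotated start of each gene, transcription running to the right; for MARK1 the lower-coordinate end of the gene is used. GSK3B and PPP2CA have 1 broad block over the start, CDK5R1 and GSK3A have several narrower blocks on both sides of it, and CDK5R2 has only low ones.

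The paralogs GSK3A and GSK3B carried their acetylation differently. GSK3B lies on chromosome 3 from 119821321 to 120094447 on the minus strand and is 273 kb long. Its start lay inside a peak from 120093078 to 120096416, which was 3339 bp wide. This peak had a fold enrichment of 46.9 and stood at percentile 99.2 of the list. It was the strongest and widest of all peaks assigned to GSK3B, and its summit lay 1051 bp upstream of the start, within the divergent non-coding gene GSK3B-DT. The other 5 peaks of the window were weak, with fold enrichments from 3.01 to 4.87. Of these, 4 lay inside the gene between 34.7 and 100.5 kb downstream of the start. No H3K27ac peak was listed in the remaining part of the gene beyond that distance.

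GSK3A is a short gene of 12.4 kb on chromosome 19, from 42230190 to 42242602 on the minus strand. Its window held 8 H3K27ac peaks. The strongest, from 42242665 to 42243788, had a fold enrichment of 24.8 (percentile 95.1) and ended 63 bp upstream of the start. On the other side of the start, a peak from 42241863 to 42242526 had a fold enrichment of 9.74. A further peak, 2101 bp upstream by its summit, had 8.83. The remaining 5 had fold enrichments between 2.49 and 7.51, and 3 of the 8 peaks lay in neighbouring genes, 2 in ERF, which encodes an ETS-family repressor, and 1 in the zinc finger gene ZNF526. The peak of the GSK3A start was thus narrower (1124 bp) and lower than that of GSK3B. GSK3A had 24.7 peaks per 100 kb of window and GSK3B 2.05, but their windows differed in length, 32.4 against 293 kb. The bases covered by H3K27ac were 4359 in the GSK3A window and 4753 in that of GSK3B.

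CTCF also differed between these paralogs. GSK3A had 3 CTCF peaks, and all 3 overlapped an H3K27ac peak. The strongest had a signal of 148 (percentile 67.6) and lay beyond the far end of the gene, in ZNF526, with its summit 143 bp from an H3K27ac summit. The other 2 lay 2318 and 3734 bp upstream of the start, with signals of 135 and 62.1. In GSK3B the 3 CTCF peaks lay far from the start, 202, 263 and 273 kb downstream. Their signals were 155, 31.9 and 74.0, and none overlapped H3K27ac. The last of them covered the end of the gene opposite its start.

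CDK5, the kinase subunit, is a gene of 4.08 kb on chromosome 7 from 151053815 to 151057897 on the minus strand. All of its 4 H3K27ac peaks lay upstream of its start, and none lay inside the gene. The strongest ran from 151058154 to 151059481 with a fold enrichment of 25.7 (percentile 95.4). It began 257 bp upstream of the CDK5 start and covered the start of SLC4A2, an anion exchanger gene that is transcribed in the opposite direction from a start 303 bp away. The next peak had a fold enrichment of 7.67, and the other 2 had 3.36 and 3.37. All 4 overlapped SLC4A2, so the acetylation cannot be assigned to CDK5 rather than to its neighbour. Both CTCF peaks also lay within SLC4A2, 2113 and 3085 bp upstream of the CDK5 start. Their signals were 79.7 and 32.2, and both overlapped H3K27ac.

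CDK5R1 and CDK5R2 encode the alternative activators of CDK5 and differed in the height of their acetylation: the highest fold enrichment was 26.99 against 6.86. CDK5R1 lies on chromosome 17 from 32486993 to 32491253 on the plus strand. It had 8 H3K27ac peaks, 32.97 per 100 kb, more than 98.7% of protein-coding genes, a rank not adjusted for gene length. The strongest was a narrow peak of 330 bp from 32486609 to 32486938, with a fold enrichment of 26.99 (percentile 95.9), whose summit lay 206 bp upstream of the start. A peak of 1162 bp downstream of the start, over the gene itself, had 16.6, and a peak with its summit 648 bp upstream had 12.4. A further peak from 32483372 to 32484504, outside any annotated gene, had a fold enrichment of 22.98 and its summit 3162 bp upstream. The remaining 4 had between 2.25 and 4.97, and 2 of the 8 peaks lay in PSMD11, a proteasome subunit gene. The stronger of 2 CTCF peaks at CDK5R1 fell within this upstream peak: its signal was 218 (percentile 83.3), and the CTCF and H3K27ac summits were 170 bp apart. The weaker one, with a signal of 36.3, lay over the gene with its summit 8 bp from that of the downstream H3K27ac peak.

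CDK5R2, on chromosome 2 from 218959666 to 218962155 on the plus strand, had 6 H3K27ac peaks. By number per length, 26.7 per 100 kb, it stood above 97.2% of protein-coding genes, again without adjustment for gene length. Yet all 6 peaks were low. The strongest, from 218959249 to 218959437, had a fold enrichment of 6.86 (percentile 69.3) and its summit 289 bp upstream of the start. A peak inside the gene had 4.41. The other 4 lay beyond the end of the gene, 3251 to 5038 bp downstream of the start, and had 3.41, 5.55, 4.84 and 3.23. No CTCF peak was listed in the window. The nearest one lay 7.62 kb outside it and was among the strongest of its list, with a signal of 363 (percentile 99.4).

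All 4 MARK genes had H3K27ac at or beside the annotated start (for MARK1, the lower-coordinate end), with very different numbers of further peaks. MARK1, on chromosome 1 from 220528136 to 220664461, had a single H3K27ac peak in 136 kb of gene. It was broad (3039 bp, from 220527095 to 220530133) and covered the lower-coordinate end of the gene, with a fold enrichment of 19.5 (percentile 92.5). Its only CTCF peak had a signal of 115 (percentile 58.3) and lay 1639 bp outside that end by its summit, clear of the H3K27ac peak. The promoter table has no entry for MARK1.

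MARK2, on chromosome 11 from 63839110 to 63911020 on the plus strand, was at the other extreme, with 16 H3K27ac and 8 CTCF peaks. The peak over its start, from 63838954 to 63840052, had a fold enrichment of 18.6 (percentile 91.8). It was flanked by 4 peaks of 2.38 to 4.86 within 3 kb. A small cluster lay 41.6 to 43.8 kb downstream, with fold enrichments of 2.59, 3.96 and 3.68, and another lay near the far end of the gene, where the highest had 9.63. The strongest peak of the window was not in MARK2. It covered 4849 bp of RCOR2, a transcriptional corepressor gene, and had a fold enrichment of 22.99, and 4 of the 16 peaks overlapped RCOR2. A second annotated MARK2 start, at 63888537 within the gene, had no peak of either list in its promoter window. The strongest CTCF peak, from 63837174 to 63837632 with a signal of 272 (percentile 92.2), had its summit 1708 bp upstream of the start. A CTCF peak of nearly the same strength, 268, lay inside the broad RCOR2 peak. The 5 CTCF peaks inside MARK2 had signals of 71.7 or less. Of these, the peaks with signals of 21.8 and 25.1 overlapped each other.

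MARK3, on chromosome 14 from 103385415 to 103503831 on the plus strand, had 2 strong H3K27ac peaks at its start. The first, from 103384272 to 103385300, had a fold enrichment of 16.8. The second, from 103385379 to 103386612, had 25.3 (percentile 95.3) and contained the start. A peak 42.0 kb downstream had 9.02, and the other 6 had 2.70 to 6.34. The strongest CTCF peak of all 10 windows was found here: it ran from 103500097 to 103500592 near the far end of the gene, 115 kb downstream of the start, with a signal of 337 (percentile 98.3). MARK3 was also the only gene of the set with a CTCF peak over its promoter window, and this was a weak peak with a signal of 24.1 (percentile 6.35). Its summit lay 58 bp from that of the first H3K27ac peak.

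MARK4, on chromosome 19 from 45251271 to 45305284 on the plus strand, had only 2 H3K27ac peaks, on either side of its start. The upstream one, from 45250417 to 45251170, had a fold enrichment of 9.89 (percentile 80.2), and the downstream one had 2.81 (percentile 8.08). Its only CTCF peak, from 45248581 to 45249089, was strong. The signal was 316 (percentile 97.0), and the summit lay 2434 bp upstream of the start.

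**Figure D2:**
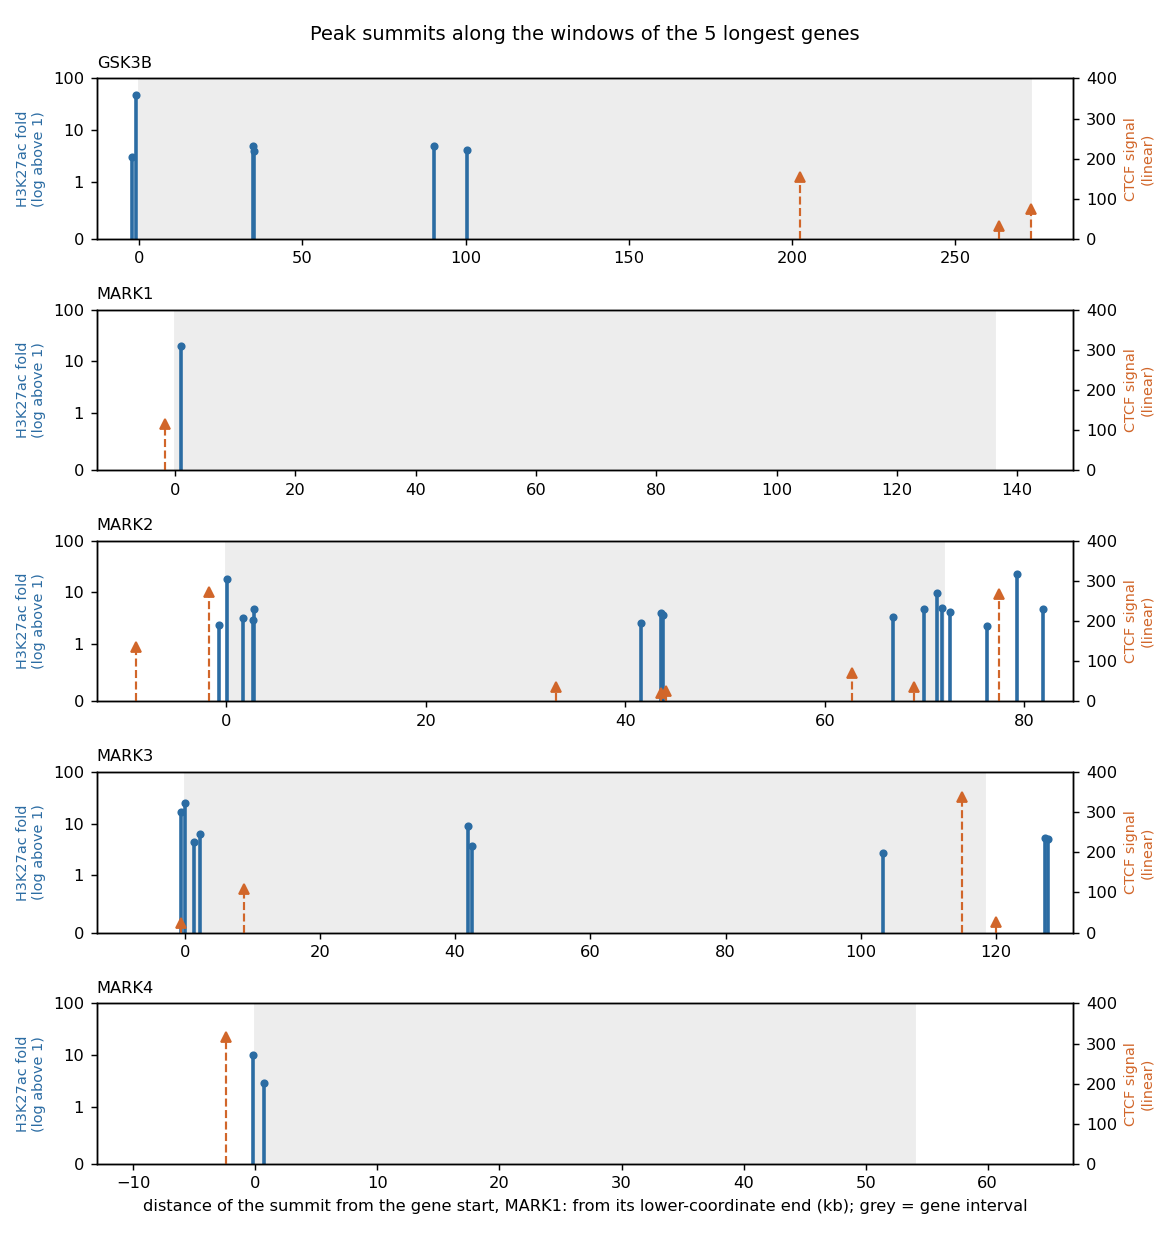
Peak summits along the windows of the 5 longest genes: H3K27ac fold enrichment (dots, left axis, log above 1) and CTCF signal (triangles, right axis, linear) against the distance from the gene start, or for MARK1 from its lower-coordinate end, in kb. MARK1 and MARK4 have peaks at 1 end alone, the 3 CTCF peaks of GSK3B lie in the part of the gene far from its start, and MARK2 has peaks of both lists at either end.

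PPP2CA, the gene of the PP2A catalytic subunit, lies on chromosome 5 from 134194332 to 134226073 on the minus strand. It had 1 H3K27ac peak and 1 CTCF peak. The H3K27ac peak, from 134225206 to 134227615, was 2410 bp wide and had a fold enrichment of 33.8 (percentile 97.6), second to GSK3B among the 10 genes. It covered both annotated starts of PPP2CA, and also the start of the divergent non-coding gene PPP2CA-DT, 337 bp away. The CTCF peak had a signal of 308 (percentile 96.2) and lay beyond the far end of the gene, 41.7 kb downstream of the start.

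The annotated starts were examined more closely in the 9 genes that the promoter table holds. It gives 300 bases per start, 250 before and 50 after, and for genes with several starts the outermost was used. The promoter window overlapped H3K27ac in 8 of 9 genes, against 58.2% of 15813 protein-coding starts, and CDK5 was the exception. An H3K27ac peak lay within 1 kb of all 9 starts, against 63.8%. The start base itself lay inside a peak in 4 genes (GSK3B, MARK2, MARK3 and PPP2CA), a share close to the 42.1% of all starts and below the 66.0% of starts with H3K27ac within 1 kb. In GSK3A, CDK5R1 and MARK4 it lay in a gap between 2 peaks whose near edges were each within 500 bp, against 13.4% of all starts and 21.0% of those with H3K27ac within 1 kb. The gap reached from 63 bp upstream to 76 bp downstream in GSK3A, from 55 to 103 bp in CDK5R1 and from 101 to 352 bp in MARK4. The distance of 500 bp was chosen after these positions were seen. The highest fold enrichment within 1 kb of the start had a median of 25.3 in the 9 genes and of 15.8 in all starts with such a peak.

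The 250 bases before the start are shown for the paralogs of GSK-3 and of the CDK5 activators and for MARK3, because these show how the listed peaks border on the starts. They are RefSeq reference sequence of GRCh38.p14, 5′ to 3′ on the strand of the gene. Capitals mark bases outside every H3K27ac peak, and lower case marks bases inside one.
GSK3A, chr19:42242603-42242852, minus strand: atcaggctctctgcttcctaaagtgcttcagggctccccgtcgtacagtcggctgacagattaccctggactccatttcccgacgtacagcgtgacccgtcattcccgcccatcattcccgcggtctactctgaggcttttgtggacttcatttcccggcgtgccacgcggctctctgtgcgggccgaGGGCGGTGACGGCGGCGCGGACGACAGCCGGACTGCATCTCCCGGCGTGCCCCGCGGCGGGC
GSK3B, chr3:120094448-120094697, minus strand: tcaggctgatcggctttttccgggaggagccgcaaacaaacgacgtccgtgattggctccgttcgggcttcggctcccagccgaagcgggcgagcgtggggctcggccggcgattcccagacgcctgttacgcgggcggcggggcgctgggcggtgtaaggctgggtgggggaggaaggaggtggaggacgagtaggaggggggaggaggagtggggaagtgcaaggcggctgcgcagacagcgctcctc
CDK5R1, chr17:32486743-32486992, plus strand: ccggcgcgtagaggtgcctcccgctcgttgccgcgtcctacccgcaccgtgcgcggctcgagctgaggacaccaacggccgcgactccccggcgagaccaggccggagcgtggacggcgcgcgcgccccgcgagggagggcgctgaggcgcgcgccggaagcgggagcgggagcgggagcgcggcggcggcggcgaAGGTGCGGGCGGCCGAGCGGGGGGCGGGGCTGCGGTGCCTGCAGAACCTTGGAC
CDK5R2, chr2:218959416-218959665, plus strand: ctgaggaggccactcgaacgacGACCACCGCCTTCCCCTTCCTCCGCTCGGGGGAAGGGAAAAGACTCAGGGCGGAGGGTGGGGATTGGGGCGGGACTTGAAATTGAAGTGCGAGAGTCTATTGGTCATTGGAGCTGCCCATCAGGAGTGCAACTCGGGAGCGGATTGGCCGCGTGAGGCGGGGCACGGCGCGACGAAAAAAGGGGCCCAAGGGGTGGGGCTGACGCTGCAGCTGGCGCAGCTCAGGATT
MARK3, chr14:103385165-103385414, plus strand: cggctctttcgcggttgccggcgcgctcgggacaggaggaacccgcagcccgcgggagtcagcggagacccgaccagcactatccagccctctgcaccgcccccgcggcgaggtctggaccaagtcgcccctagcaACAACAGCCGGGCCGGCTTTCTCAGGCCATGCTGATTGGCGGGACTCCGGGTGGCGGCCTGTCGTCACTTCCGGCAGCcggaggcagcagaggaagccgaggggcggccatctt

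In GSK3A the last 62 bases before the start were free of a peak, and in CDK5R1 the last 54. In CDK5R2 only the first 22 of the 250 bases lay in a peak. In GSK3B all 250 were covered. In MARK3 a stretch of 78 bases was free, and the peak resumed before the start. C and G made up 64.0 to 79.6% of the 9 promoters, with a median of 68.8%. That median was 62.0% over all 15813 starts and 65.2% over starts with H3K27ac within 1 kb. CDK5 and CDK5R2, both at 64.0%, stood above only 55.4% of starts. The number of CG dinucleotides in 250 bases had a median of 28, against 17 over all starts and 21 over starts with H3K27ac within 1 kb. CDK5R1 had the most with 46, more than 99.5% of starts, and CDK5R2 the fewest with 20.

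Short motifs were searched on both strands of these 250 bases. The letters GGGCGG, the GC box bound by SP1-type factors, occurred in 9 of 9 promoters, against 55.8% of all starts and 68.6% of starts with H3K27ac within 1 kb. In CDK5R1 and CDK5R2 both copies, and in GSK3A 1 of 2, lay in the capitals printed above. In GSK3B and MARK3 both copies lay inside an H3K27ac peak. CCAAT, the box bound by NF-Y, occurred in GSK3B, MARK3 and CDK5R2, which is 3 of 9 against 34.4% of all starts. CDK5R2 held 4 copies, all on the reverse strand and all in its uncovered bases. TATAAA occurred in 0 of 9, against 9.36%. The CTCF core letters AGGGGGC or AGGTGGC also occurred in 0 of 9, against 21.8%. With AGAGGGC and AGATGGC added, 1 of 9 had a match, against 30.4%. This was MARK3, with 1 copy of each of the added forms. The copy of AGAGGGC, 164 to 158 bases before the start, lay inside the weak CTCF peak at this promoter, and the other lay outside it. The GC box, the NF-Y box and TATAAA were chosen after the peaks had been seen, and a match is not evidence of binding.

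CTCF was counted at and around the same 9 starts. A CTCF peak overlapped the promoter window of 1 of 9 genes, against 21.6% of all starts, and lay within 1 kb of the start in 2 of 9 (CDK5R1 and MARK3), against 32.9%. A CTCF summit lay 1 to 5 kb upstream of the start in 5 of 9 genes (GSK3A, CDK5, CDK5R1, MARK2 and MARK4), against 12.1% of all starts and 13.1% of those with H3K27ac within 1 kb. The same distance downstream held a CTCF summit in 0 of 9 genes, against 12.0% and 13.9%. In CDK5 these summits are inside SLC4A2 and thus downstream of the start of that gene. The range was chosen after the positions were seen: with 0 to 5 kb upstream the count was 6 of 9 against 27.9%, and with 1 to 10 kb it was 5 of 9 against 22.7%.

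CTCF and H3K27ac met at 11 of the 25 CTCF peaks in the 10 windows, a share of 44.0% with a 95% confidence interval (Wilson, counting error only) of 26.7 to 62.9%. The share was 28.1% over the whole CTCF list and 34.1% over CTCF peaks within 10 kb of a protein-coding gene, both inside that interval. The interval treats the 25 peaks as independent. Overlap went largely by gene, so the interval can be too narrow, and it is not a test. The overlaps were spread unevenly: all CTCF peaks of GSK3A, CDK5 and CDK5R1 overlapped H3K27ac, 3 of 8 did at MARK2 and 1 of 4 at MARK3, and none did at GSK3B, MARK1, MARK4 or PPP2CA. At MARK2 the CTCF peaks with signals of 21.8 and 25.1 overlapped each other and met the same H3K27ac peaks, so they may mark the same site. With overlapping entries merged, 24 CTCF peaks were left in the 10 windows. The strongest CTCF peaks of MARK3, MARK4, PPP2CA and MARK2 were all clear of H3K27ac. Of the 25 CTCF peaks, 9 had a width of exactly 800 bp, which is shared by 33.4% of the list. Their signals ran from 21.8 to 36.3, and each was weaker than each of the other 16, whose lowest signal was 62.1. Of the 9, 5 overlapped H3K27ac, including both of the MARK2 peaks that overlapped each other, as did 6 of the other 16. The share by width over the whole list is not given here, so no trait of the 10 genes can be read from these counts. Of the 61 H3K27ac peaks, 4 were 2 kb wide or more (at GSK3B, MARK1 and PPP2CA and in RCOR2), against 4.44% of the list. Of the same 61, 7 had a q-value above 0.05, and none of the CTCF peaks did. The shares of the whole lists above 0.05 are not given here, so these counts cannot be read as particular to the 10 genes.

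The edge of the windows decided a few memberships. The CTCF peaks beyond the far ends of GSK3A and PPP2CA lay across the 10 kb limit and were counted. A CTCF peak beyond MARK2 with a signal of 139 lay 48 bp outside and was not. An H3K27ac peak 321 bp outside the GSK3A window, with a fold enrichment of 3.51, was also left out.

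Set among all protein-coding genes, GSK3B had the highest fold enrichment of the 10, and that of PPP2CA, next in order, exceeded 86.7% of genes. CDK5R1, CDK5, MARK3, GSK3A and MARK2 followed closely together, between 73.3 and 79.2%, and MARK1 stood at 66.9%. The peaks behind the ranks of CDK5 and MARK2 lay in the neighbouring genes SLC4A2 and RCOR2. MARK4 (43.4%) and CDK5R2 (35.2%) were below the middle. For CTCF the order was different. MARK3 exceeded 96.0% of genes, MARK4 93.1%, PPP2CA 91.6% and MARK2 83.9%, while GSK3A, GSK3B, MARK1 and CDK5 lay between 39.98 and 56.3%, with CDK5R1 at 70.9%. MARK4 thus ranked ninth of the 10 genes for H3K27ac and second for CTCF. The median of the members' highest fold enrichment was 25.0, against 12.3 over all protein-coding genes with a gene without a peak set to 0. For CTCF the medians were 187 and 126. A longer gene has more chances to hold a strong peak, and these ranks were not adjusted for length.

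**Figure D3:**
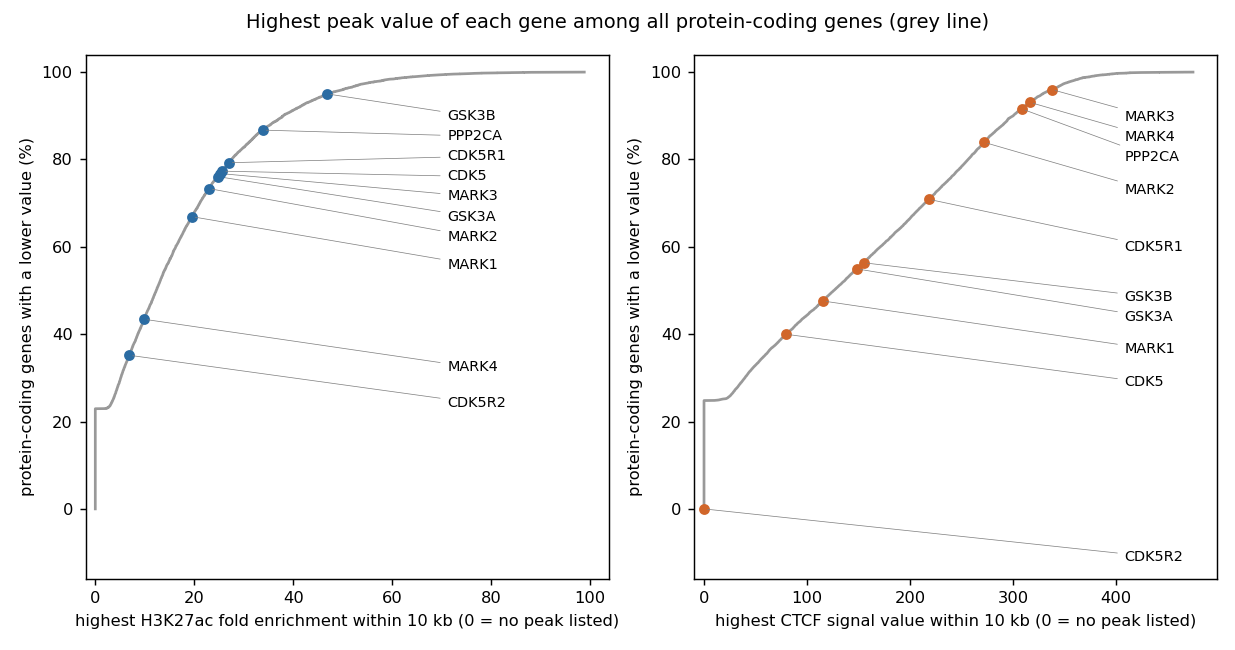
Highest H3K27ac fold enrichment (left) and highest CTCF signal (right) within 10 kb of each gene on the x axis against the percentage of protein-coding genes with a lower value; the grey line is all 19974 protein-coding genes and the dots are the 10 genes. MARK4 is low on the left and high on the right, and CDK5R2 is lowest on both sides.

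The number of peaks was read against genes of similar length, within 20%. MARK2 had 16 H3K27ac peaks where the median of 1683 such genes was 3, and 8 CTCF peaks where the median was 2. GSK3A had 8 H3K27ac peaks against a median of 2, CDK5R1 had 8 against 2, CDK5 had 4 against 2, CDK5R2 had 6 against 1, and MARK3 had 9 against 4. GSK3B was near its median, with 6 against 7. MARK1 had 1 against 4, MARK4 had 2 against 3, and PPP2CA had 1 against 2. The share of the window covered by H3K27ac ran from 1.62% in GSK3B to 16.4% in CDK5R1, and its median over the 10 genes was 6.42%, against 2.38% over all protein-coding genes. These covered shares were not adjusted for gene length.

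**Figure D4:**
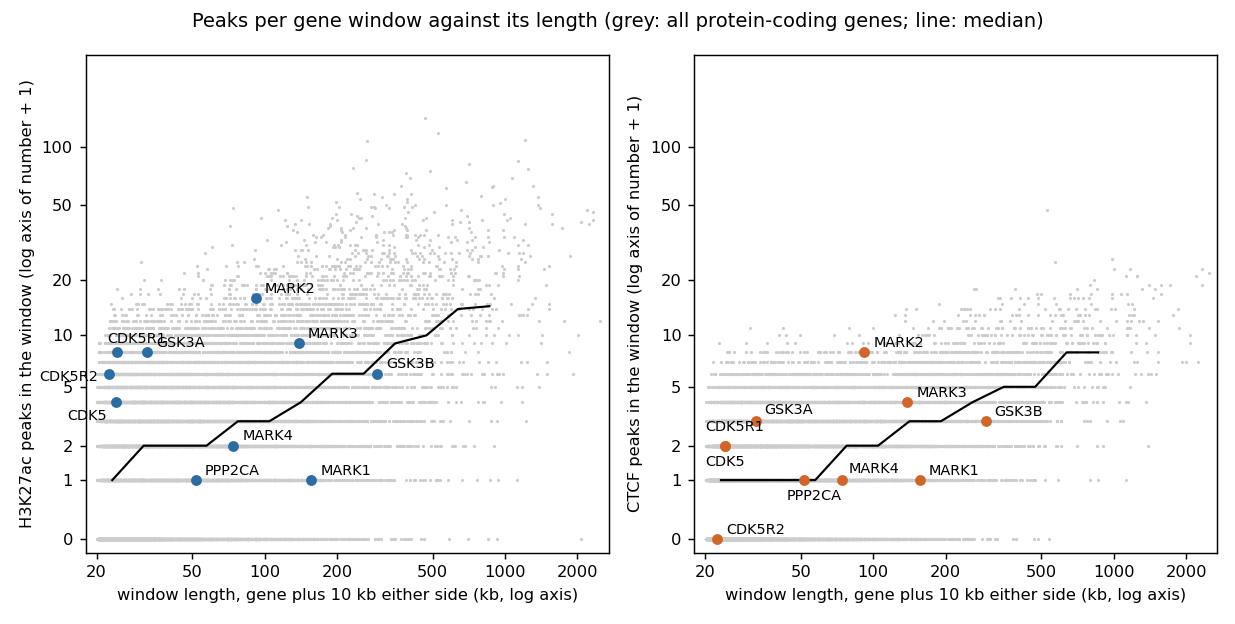
Number of H3K27ac peaks (left) and CTCF peaks (right) per window, on a log axis of the number plus 1, against window length in kb, on a log axis; grey points are all protein-coding genes, the black line is their median in bins of length and the coloured points are the 10 genes. CDK5 and CDK5R1 coincide in the right panel; MARK2 lies above the median line in both panels, and MARK1 lies below it in both.

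Other genes of tau phosphorylation were taken from a list of 79. Unlike for the 10 genes, it was not examined whether the peaks counted for them lay in a neighbouring gene. An H3K27ac peak lay within 10 kb of 78 of the 79, against 77.1% of all protein-coding genes. A CTCF peak lay within 10 kb of 75, against 75.2%. The strongest H3K27ac peak reached percentile 90 in 49 of 79, against 39.8% of all protein-coding genes, and the strongest CTCF peak did in 17, against 19.7%. Among the 43 other kinases reported to phosphorylate tau, the highest fold enrichments were 71.7 at AKT2, 67.3 at CSNK2A1, a casein kinase 2 catalytic subunit, and 58.4 at ABL1, a tyrosine kinase. PTPA, an activator of PP2A, came between these with 60.8. MAPK13, a p38-family kinase, was the only listed gene without an H3K27ac peak. The highest CTCF signals were 348 at CAMK2G, 327 at MAPK14 and 326 at PPP2CB, the second PP2A catalytic gene.

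By role, the median of the highest fold enrichment was 17.7 for the 43 other tau kinases and 22.8 for the 20 other phosphatase genes, in which 16 of 20 reached percentile 90. PPP2CB had 38.1, close to the 33.8 of PPP2CA, and PPP2R1A, which encodes a PP2A scaffold subunit, had 47.6. The 9 regulators of PP2A had a median of 22.3. Among the 3 kinases that act upstream of MARK, TAOK1 had 37.7, TAOK2 19.7 and STK11 16.4. The calpains and calpastatin, which control the cleavage of the CDK5 activators, had 8.20 (CAPN1), 11.2 (CAPN2) and 14.8 (CAST), and none of the 3 reached percentile 90. MAPT, the substrate, had 12.9. The neuron-enriched kinase TTBK1 had 6.09, while its paralog TTBK2 had 17.3, and the brain kinases BRSK1 and BRSK2 had 9.71 and 19.9.

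**Figure D5:**
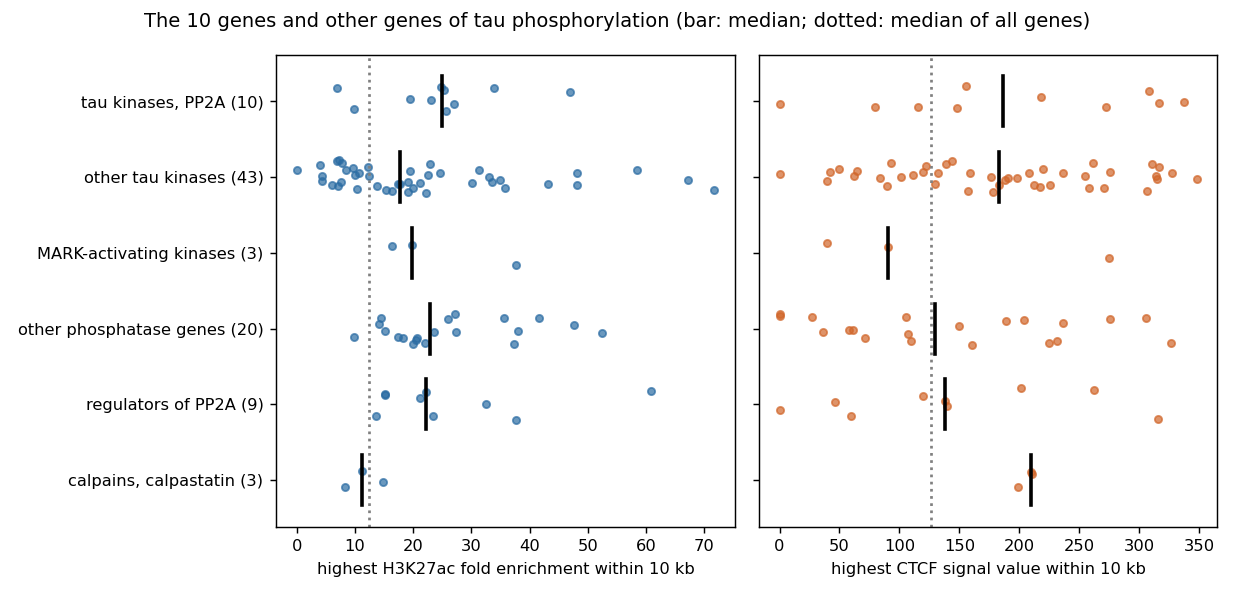
Highest H3K27ac fold enrichment (left) and highest CTCF signal (right) within 10 kb, 1 dot per gene, for the 10 genes and the lists of other genes (number in brackets); a gene without a peak is at 0, the bar is the median of the list and the dotted line the median of all protein-coding genes. The H3K27ac medians of the 10 genes and of every list except the calpains and calpastatin lie to the right of the dotted line.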

How the data were processed

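Formaldehyde (1%, 10 min) was the fixative, and library PCR ran for 15 cycles, as the labels' protocols state. The submitters' processing notes name hg38 and cutadapt 1.16; the aligner, peak caller, treatment of PCR duplicates and peak thresholds are not given in the sources used here. The authors deposited 1 peak list per antibody for both libraries. Column 7 was read as a signal of unstated scale in the deposited CTCF list and, judged from its values, as a fold enrichment (a ratio) in the deposited H3K27ac list. The deposited −log10 q served only for the 0.05 threshold; in the CTCF list it has a ceiling of 4.78. The authors' display score was not used. The lists hold no counts, and depth is unknown.

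Gene windows, overlaps (at least 1 bp), summit distances and percentiles were computed with Python 3.11.15 and pandas 2.3.3, and the overlap code was tested on simulated intervals. Gene intervals and the 250 bases before each start came from RefSeq tables of GRCh38.p14; 9 of 10 genes had a promoter entry, and 15813 of 19974 protein-coding genes. The share of CTCF peaks overlapping H3K27ac has a 95% Wilson interval (SciPy 1.17.1). The 10 genes and all lists were chosen with earlier results of these data known. All peaks in the 10 windows were counted; those named are the strongest of each list, those at starts, and overlapping pairs. Other pathway genes were named for the 3 highest values or for lacking a peak, and further ones after their values were seen. Protein identity between paralogs was planned and not analysed here. Alternatives were other window sizes, stricter lists, and other rules of overlap.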

Additional observations from a re-analysis of the deposited data

How the results depend on the processing

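No paired analysis was possible because both libraries of an antibody went into 1 list, so replicates cannot be compared or left out. Of 84 alternatives 60 left the value as it was or within its allowed range and 24 moved it. With the gene interval alone there were 29 H3K27ac peaks (61 with the extension) and 11 CTCF peaks (25), 4 genes kept a CTCF peak (9), and the medians of the highest values were 18.6 for H3K27ac (25.0) and 113 for CTCF (218, over genes with a peak). The percentile of the strongest H3K27ac peak was then 79.8 for GSK3A, 90.2 for CDK5R1, 44.2 for CDK5R2, 91.8 for MARK2 and 8.08 for MARK4; CDK5 had no H3K27ac peak and gave no value. For CTCF it was 17.5 for CDK5R1 and 41.7 for MARK2. With 20 kb the H3K27ac percentile of PPP2CA was 98.8, the CTCF percentiles of CDK5 and MARK1 were 57.5 and 72.8, and the CTCF median was 245. The strongest 50% of each list held 34 H3K27ac and 12 CTCF peaks of these windows, with a CTCF median of 245. Without CTCF peaks of 800 bp 16 were left. The start base alone lay in H3K27ac in 4 genes (8 by promoter window) and in CTCF in 0 (1); CTCF lay within 1 kb of 2 starts and, in the strongest 50% of the list, in 0 promoter windows. The share of CTCF peaks overlapping H3K27ac stayed within its interval in the 5 alternatives run.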

Other observations

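Beyond the windows, the surroundings of the 10 genes differed widely. CDK5R2 stood most alone: the next H3K27ac peaks lay 202 kb and 188 kb beyond the 2 edges of its window, and the second of these had a fold enrichment of 54.3. GSK3B was also isolated, with the next H3K27ac peaks 79.2 and 55.5 kb away and the next CTCF peaks 121 and 140 kb away. Beyond the CTCF peak inside its window, MARK1 had no further one for 222 kb past the window edge on the side of its acetylated end. Near MARK3, an H3K27ac peak with a fold enrichment of 15.4 lay 3.60 kb outside the window and a CTCF peak with a signal of 293 lay 4.67 kb outside, both beyond the far end of the gene.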
